A study of Mus musculus with 16 samples.

Results

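Expression of 8 genes of the extracellular matrix was followed in a lower leg muscle of the mouse, the tibialis anterior. The genes were Postn (periostin), Tnc (tenascin C), Sparc (osteonectin), Fn1 (fibronectin), Fbn1 (fibrillin 1) and the thrombospondins Thbs1, Thbs2 and Thbs4. They were chosen by name from the 29730 genes of the count table, through the match of their Ensembl identifiers to symbols in the GENCODE annotation of GRCm38, and all 8 were found. RNA was sequenced from 16 male mice of the C57BL/6N strain aged 7 weeks, in 4 groups of 4. Wild-type (WT) mice given phosphate-buffered saline formed WT_PBS, and wild-type mice given an antisense oligonucleotide formed WT_ASO. Bin1mck-/- mice given saline formed KO_PBS, and those given the oligonucleotide formed KO_ASO. The oligonucleotide, ASO1, is directed against Dnm2 according to the series title, and the groups not given it received saline, with no control oligonucleotide among them. The sources used here do not give the part of Bin1 removed, the cells it was removed in, or the dose and schedule of injection. The question the series names is whether lowering Dnm2 alters this model of recessive centronuclear myopathy, a muscle disease with misplaced fibre nuclei.

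All 8 are protein-coding genes of GRCm38. Postn is ENSMUSG00000027750 on chromosome 3 from 54361109 to 54391037, plus strand. Tnc is ENSMUSG00000028364 on chromosome 4 from 63959785 to 64047015, minus strand, and Sparc is ENSMUSG00000018593 on chromosome 11 from 55394500 to 55423183, minus strand. Fn1 is ENSMUSG00000026193 on chromosome 1 from 71585520 to 71653200, minus strand. On chromosome 2 lie Fbn1, ENSMUSG00000027204 from 125300594 to 125507993, minus strand, and Thbs1, ENSMUSG00000040152 from 118111876 to 118127133, plus strand. Thbs2 is ENSMUSG00000023885 on chromosome 17 from 14665500 to 14694235, minus strand, and Thbs4 is ENSMUSG00000021702 on chromosome 13 from 92751590 to 92794818, minus strand.

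Counts per library summed to between 27591900 and 40862854. Levels are given as CPM, each gene's count relative to its library after TMM scaling (trimmed mean of M values). The libraries went with their labels: Bin1 ran from 462.6 to 619.8 CPM in wild-type samples and from 31.7 to 47.7 in knockout samples, and Dnm2 from 50.2 to 67.7 CPM under saline and from 20.7 to 31.1 under the oligonucleotide. A list of 7 fast myofibre genes summed to at least 119010 CPM in every sample. All 8 matrix genes passed the filter on low counts, with between 51 counts (Tnc in WT_ASO replicate 2) and 24644 counts (Sparc in KO_PBS replicate 3) in a sample, so counting error was small beside the spread between mice. Genes on the opposite strand that overlap Tnc, Fn1 or Fbn1 had mean counts of at most 0.75, and no gene overlapped the other 5.

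Matricellular proteins are secreted into the matrix but serve less as scaffold than as signals: they bind integrins, syndecans, growth factors and collagen, and change how cells adhere and move. In resting muscle most are made by fibroblasts, tendon cells and vessels, and their levels are known to climb in injury and fibrosis. Fibronectin and fibrillin 1 are structural glycoproteins of the same matrix. Fibronectin forms the provisional mesh that integrins assemble, and fibrillin 1 builds the microfibrils that carry elastin and hold latent TGF-beta.

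Promoter sequence from RefSeq (GRCm38.p6) matched 6 of the 8 genes, with 8 windows of 250 bases ending just before an annotated start. Windows are shown for Fbn1, which was called between the saline groups, and for Postn and Tnc, the genes whose level varied most between mice of a group, with capitals marking the letters TATAAA.
Fbn1, chr2:125506439-125506688, minus strand: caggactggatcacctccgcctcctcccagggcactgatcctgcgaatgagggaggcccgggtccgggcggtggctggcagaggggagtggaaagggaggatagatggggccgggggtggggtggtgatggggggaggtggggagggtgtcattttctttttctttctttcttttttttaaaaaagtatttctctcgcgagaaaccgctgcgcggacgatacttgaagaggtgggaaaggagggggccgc
Postn, chr3:54360857-54361106, plus strand: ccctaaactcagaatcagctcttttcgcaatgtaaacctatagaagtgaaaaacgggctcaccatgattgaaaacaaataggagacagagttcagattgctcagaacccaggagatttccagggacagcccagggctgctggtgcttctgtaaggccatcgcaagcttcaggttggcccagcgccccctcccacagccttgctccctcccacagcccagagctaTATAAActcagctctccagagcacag
Tnc, chr4:64046937-64047186, minus strand: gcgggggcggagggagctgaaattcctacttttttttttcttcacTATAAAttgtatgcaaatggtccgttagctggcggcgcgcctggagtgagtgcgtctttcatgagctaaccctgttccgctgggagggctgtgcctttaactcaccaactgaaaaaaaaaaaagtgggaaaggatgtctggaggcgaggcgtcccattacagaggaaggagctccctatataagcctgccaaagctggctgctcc
The TATA box letters TATAAA, searched on both strands, were in 4 of the 8 windows, against 12.4% of all 32851 promoter windows of that length. They were on the gene's own strand in this Postn window and in both Tnc windows, which overlap, and on the opposite strand in the Thbs2 window. In the Postn window they began 26 bases before the start. The Tnc windows held the same site, which began 126 and 205 bases before their respective starts. The letters GGAATG, to which TEAD factors bind, were, on either strand, in 1 of the 8 windows, that of Thbs4 with 2 matches, against 12.6% of all windows. On either strand the AP-1 letters TGANTCA were in 0 of the 8 windows and in 6.75% of all.

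Some libraries stood apart in ways the groups do not explain. Bone genes chosen after their values were seen (Ibsp, Tnn, Mmp13, Sp7, Bglap and Bglap2) summed to 222, 393 and 595 counts in WT_PBS replicates 1, 3 and 4. They summed to 3 counts in WT_PBS replicate 2 and to between 0 and 19 counts in the other 12 samples. Ibsp (bone sialoprotein) and Tnn (tenascin N), both relatives of the genes studied here, had 0 counts in WT_PBS replicate 2. Postn, Tnc, Fn1, Thbs2 and Thbs4 were all lower in WT_PBS replicate 2 than in the other WT_PBS samples. Thbs1 was lowest there too, by a small margin (4.92 CPM, against 4.95 CPM in WT_PBS replicate 3). The part of the bone genes' source in these levels was not tested, and results against WT_PBS are given below with replicate 2 as the only WT_PBS sample as well. A second split ran through both groups given the oligonucleotide. The 10 fibroblast genes of the marker list (Pdgfra, Dcn, Dpt, Pi16, Col1a1, Col1a2, Col3a1, Lum, Gsn and Clec3b) summed to 784, 1198, 2236 and 2372 CPM in WT_ASO replicates 1 to 4 and to 858, 946, 1982 and 2181 CPM in KO_ASO replicates 1 to 4, so that replicates 1 and 2 were low and replicates 3 and 4 high in each. Collagen genes carried much of this sum and of its spread. In WT_ASO Col1a1 measured 344 ± 252, Col1a2 398 ± 285 and Col3a1 334 ± 162 CPM, against 132 ± 27.5 for Dcn and 360 ± 86.8 for Gsn (SD, n = 4). The same genes measured 285 ± 227, 315 ± 232, 368 ± 234, 134 ± 25.9 and 300 ± 36.8 CPM in KO_ASO (SD, n = 4).

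**Figure D1:**
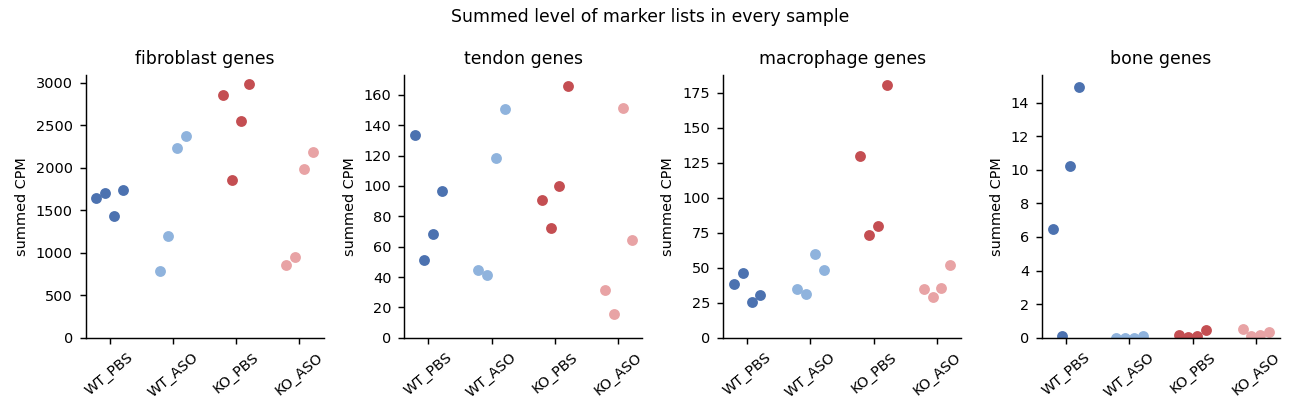
Summed CPM (y axis) of the fibroblast, tendon, macrophage and bone gene lists in each sample, by group on the x axis, with a point per sample ordered from replicate 1 to 4. Bone genes stood above 6 CPM in WT_PBS replicates 1, 3 and 4 and below 1 CPM elsewhere, and fibroblast genes formed a low and a high pair in WT_ASO and KO_ASO.

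Per kilobase of exon sequence, Sparc was the most abundant of the 8 genes in all 4 groups. In WT_PBS it measured 112 ± 5.73 CPM per kb (SD, n = 4), followed by Thbs4 with 30.6 ± 7.93, Fn1 with 7.93 ± 1.83 and Postn with 3.74 ± 1.36 CPM per kb (SD, n = 4). Fbn1 followed with 2.72 ± 0.520, Thbs2 with 1.45 ± 0.368, Tnc with 0.962 ± 0.427 and Thbs1 with 0.900 ± 0.130 CPM per kb (SD, n = 4). Sparc, Thbs4 and Fn1 each exceeded the next gene in every WT_PBS sample, and so did Fbn1 over Thbs2, whereas the sample ranges of Postn and Fbn1, of Thbs2 and Tnc, and of Tnc and Thbs1 overlapped. In KO_PBS Thbs1 stood at 2.62 ± 1.15 CPM per kb (SD, n = 4), now above Tnc and Thbs2 by its mean, with ranges that overlapped both. Dividing by the longest transcript in place of all exons raised Sparc in WT_PBS to 184 CPM per kb and Postn to 6.23 CPM per kb, and left the order of the 8 genes in WT_PBS the same.

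The comparison of KO_PBS with WT_PBS asks what the loss of Bin1 changes without treatment. Thbs1 and Fbn1 rose, to 2.91 and 2.45 times their WT_PBS means, and the other 6 genes had positive log2 fold changes (log2FC) that did not pass the test. Genes called were those with an adjusted P value under 0.05 in edgeR's quasi-likelihood test over 14960 genes, so 2 of 8 were called higher where 7.43% of all genes were (12.6% in either direction). The median log2FC of the 8 was 0.86, against -0.01 over all genes tested, and 8 of 8 were positive against 48.5% of all. With library totals in place of TMM scaling the median over all genes was 0.14 and 88.2% of the calls were higher, against 59.2% with TMM, so directions are relative to the TMM scale, and Thbs1 and Fbn1 were called on both.

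Thrombospondin 1 binds CD36, CD47 and integrins and activates latent TGF-beta. It measured 6.61, 4.92, 4.95 and 5.39 CPM in WT_PBS replicates 1 to 4 and 24.7, 10.8, 9.83 and 18.4 CPM in KO_PBS. All 4 KO_PBS samples lay above all 4 WT_PBS samples, with replicates 1 and 4 of KO_PBS the highest. The log2FC was 1.54 ± 0.32 (SE; adjusted P value = 0.00577, edgeR, n = 4 per group). Fibrillin 1 measured 38.5, 36.2, 24.1 and 33.1 CPM in WT_PBS and 112, 56.0, 64.3 and 91.1 CPM in KO_PBS. Its groups did not overlap either, and the same 2 KO_PBS replicates were the highest. The log2FC of Fbn1 was 1.29 ± 0.31 (SE; adjusted P value = 0.0128, edgeR, n = 4 per group). Both calls held when any 1 of the 16 samples was left out, with adjusted P values in edgeR of up to 0.0225 for Thbs1 and 0.0488 for Fbn1. With WT_PBS replicate 2 as the only WT_PBS sample the log2FCs were 1.69 and 1.16 and neither passed (adjusted P value = 0.218 and 0.347, edgeR), the single sample being assumed to vary like the other groups.

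**Figure D2:**
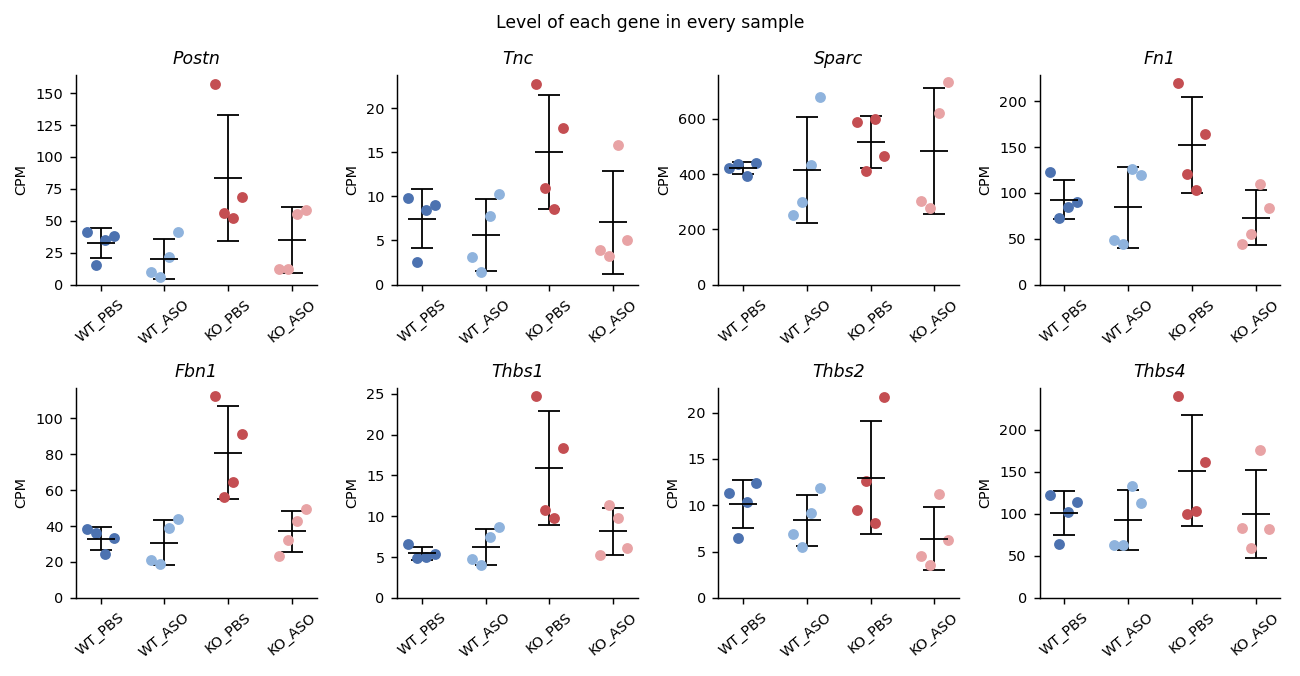
CPM (y axis) of the 8 genes in each of the 16 samples, by group on the x axis, with a point per sample ordered from replicate 1 to 4, and the group mean and SD (n = 4) as bars. KO_PBS samples lay above every WT_PBS sample for Postn, Fbn1 and Thbs1, and the points of the other genes overlapped.

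Periostin, which helps collagen to crosslink and is a usual marker of activated fibroblasts, measured 41.6, 15.2, 35.2 and 38.2 CPM in WT_PBS and 157, 55.9, 52.2 and 68.3 CPM in KO_PBS. Its groups did not overlap, and KO_PBS replicate 1 stood far above every other sample. The log2FC of 1.35 ± 0.65 (SE) did not pass (adjusted P value = 0.199, edgeR, n = 4 per group), and without that sample it was 0.85. In a fit of the WT_PBS and KO_PBS samples alone Postn was called (log2FC 1.36, adjusted P value = 0.0454, edgeR, n = 4 per group). Groups that did not overlap, KO_PBS above, thus numbered 3 of 8, against 10.5% of all genes. Tenascin C, an adhesion-modulating protein of tendon and healing wounds, measured 9.80, 2.57, 8.46 and 9.08 CPM in WT_PBS and 22.7, 11.0, 8.61 and 17.8 CPM in KO_PBS. KO_PBS replicate 3 fell below 2 of the WT_PBS samples, and the log2FC was 1.0 ± 0.61 (SE; adjusted P value = 0.323, edgeR, n = 4 per group).

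Fibronectin measured 123, 72.3, 85.0 and 90.5 CPM in WT_PBS and 220.3, 121, 103 and 165 CPM in KO_PBS, with a log2FC of 0.72 ± 0.37 (SE; adjusted P value = 0.236, edgeR, n = 4 per group). Only KO_PBS replicates 2 and 3 lay within the WT_PBS range. Thrombospondin 4, the tendon and muscle form, measured 123, 63.7, 102 and 114 CPM in WT_PBS and 240.1, 99.3, 104 and 162 CPM in KO_PBS, a log2FC of 0.58 ± 0.38 (SE). Again 2 KO_PBS samples, replicates 2 and 3, lay inside the WT_PBS range, and without KO_PBS replicate 1 the log2FC of Thbs4 was 0.27. Thrombospondin 2, an inhibitor of vessel growth that shares its receptors with thrombospondin 1, measured 11.4, 6.48, 10.3 and 12.4 CPM in WT_PBS and 9.54, 12.6, 8.07 and 21.7 CPM in KO_PBS. Its log2FC of 0.35 ± 0.36 (SE) rested on KO_PBS replicate 4, without which it was -0.0076, and was 0.19 without WT_PBS replicate 2. Sparc, a collagen-binding protein needed for fibril assembly, measured 422, 436, 393 and 440.5 CPM in WT_PBS and 587, 411, 601 and 464 CPM in KO_PBS, and its log2FC was 0.29 ± 0.32 (SE). The adjusted P values of Thbs4, Thbs2 and Sparc were 0.346, 0.58 and 0.611 in edgeR. With WT_PBS replicate 2 as the only WT_PBS sample none of these 6 genes passed, and the log2FCs were larger for 5 of them, at 2.45 for Postn, 2.54 for Tnc, 1.07 for Fn1, 1.0 for Thbs2 and 1.24 for Thbs4, and 0.24 for Sparc.

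**Figure D3:**
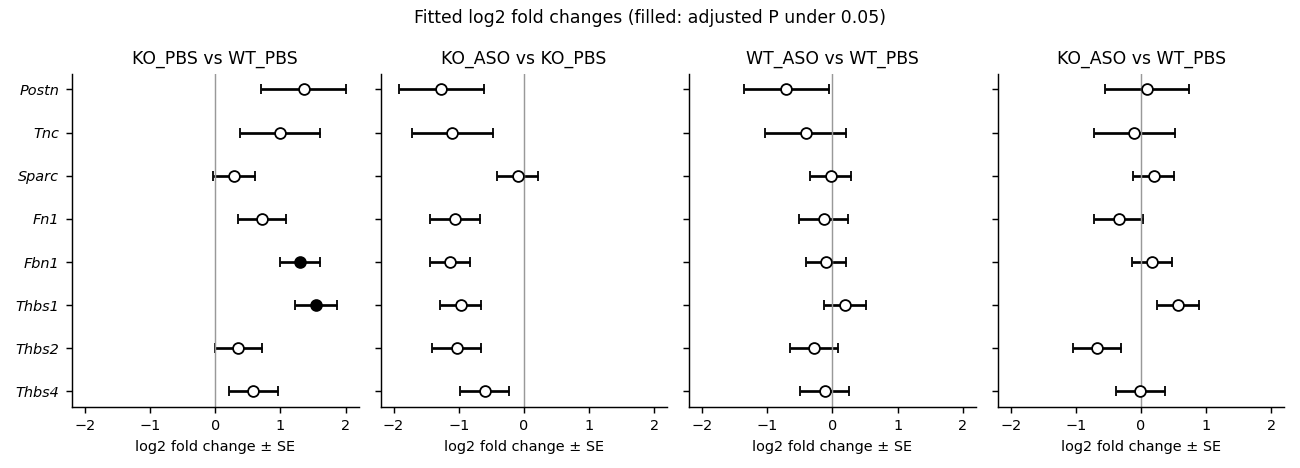
Fitted log2FC with its SE (x axis) of each of the 8 genes (y axis) in 4 comparisons, filled where the adjusted P value in edgeR was under 0.05. Filled points were Fbn1 and Thbs1 in KO_PBS vs WT_PBS, where all 8 values were positive, while all 8 were negative in KO_ASO vs KO_PBS, which shares the KO_PBS samples.

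Cell type markers moved between the saline groups too. In bulk muscle, fewer cells of a type and less RNA per cell cannot be told apart. Of the fibroblast genes 5 of 10 were called higher in KO_PBS and their sum ran from 1437 to 1740 CPM in WT_PBS and from 1858 to 2986 CPM in KO_PBS, without overlap. All 7 macrophage genes were called higher, with sums of 25.6 to 46.6 CPM in WT_PBS and 73.5 to 180.3 CPM in KO_PBS. Of 7 tendon genes 1 was called higher, with sums of 51.4 to 133.8 CPM in WT_PBS and 72.5 to 165.9 CPM in KO_PBS. Among the other lists, 4 of 5 satellite cell genes and 3 of 7 myofibre genes were called lower, 1 of 6 smooth muscle and pericyte genes was called higher and 2 lower, and 0 of 6 endothelial, 0 of 6 Schwann, 0 of 5 adipocyte and 0 of 5 blood genes were called. Both platelet genes that could be tested, of 5 listed, were called higher, while the defining Gp9 and Gp1bb had at most 10 counts in every sample. The part of these cell types in the levels of Thbs1 and Fbn1 was not tested.

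Set against the fibroblast sum of the same sample, Fbn1 measured 20.1 ± 2.82 CPM per 1000 fibroblast CPM in WT_PBS and 31.3 ± 5.87 in KO_PBS (SD, n = 4), from 16.8 to 23.4 and from 25.2 to 39.3, so the groups stayed apart. The sum is weighted toward Col1a1, Col1a2 and Col3a1, none of which was called between the saline groups (adjusted P value = 0.608, 0.717 and 0.212, edgeR). Against Pdgfra alone, the receptor that marks muscle fibroblasts, Fbn1 was 3.31 ± 0.489 times its level in WT_PBS and 4.18 ± 0.391 times in KO_PBS (SD, n = 4), with ranges of 2.80 to 3.78 and 3.67 to 4.61 that overlapped. Thbs1 measured 3.36 ± 0.491 CPM per 1000 fibroblast CPM in WT_PBS and 6.12 ± 1.97 in KO_PBS (SD, n = 4), with the lowest KO_PBS value at 3.86 and the highest WT_PBS value at 4.01, so these overlapped. Against Pdgfra, Thbs1 was 0.554 ± 0.0908 times the Pdgfra level in WT_PBS and 0.799 ± 0.116 times in KO_PBS (SD, n = 4), with ranges of 0.456 to 0.648 and 0.705 to 0.946 that did not overlap. Sparc went the other way against the fibroblast sum, at 259.5 ± 9.19 in WT_PBS and 204.7 ± 35.0 in KO_PBS (SD, n = 4), where all 4 KO_PBS samples lay below all 4 WT_PBS samples. Against Pdgfra its ranges overlapped, at 37.2 to 48.5 times the Pdgfra level in WT_PBS and 21.2 to 43.1 in KO_PBS.

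What the oligonucleotide changed in knockout mice was read from KO_ASO against KO_PBS, with the same KO_PBS samples as above. None of the 8 genes was called by edgeR, where 3.64% of all genes were, although all 8 had lower means and the median log2FC was -1.05 against 0.01 over all genes. At an unadjusted P value under 0.05 there were 4 genes, Fbn1, Thbs1, Fn1 and Thbs2, against 17.7% of all genes. Of all calls 22.1% were higher with TMM and 8.29% with library totals. DESeq2 called 2 genes, Fbn1 and Thbs1, and limma-voom called 1, Fbn1. The shares of all genes called by these tools are not given here. They also called more of the related genes described below, 17 and 18 against 9 in edgeR. Negative log2FCs were found for 48.1% of all genes.

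Fbn1 measured 23.3, 32.1, 42.9 and 49.6 CPM in KO_ASO replicates 1 to 4. It was the 1 gene of the 8 whose KO_ASO samples all lay below all KO_PBS samples, as 6.34% of all genes did. Its log2FC was -1.13 ± 0.30 (SE; adjusted P value = 0.054, edgeR, n = 4 per group). It passed in DESeq2 (adjusted P value = 0.00413), in limma-voom (adjusted P value = 0.0274), in edgeR with library totals alone (0.0381), and in edgeR without WT_ASO replicate 2 (adjusted P value = 0.0436), WT_ASO replicate 4 (0.0443), KO_PBS replicate 2 (0.0401) or KO_ASO replicate 4 (0.0357). It did not pass with any of the other 12 samples left out, at adjusted P values of 0.0506 to 0.181 (edgeR), the highest being without KO_PBS replicate 1, where the log2FC was -0.94, and without KO_ASO replicate 1 (0.16). Nor did it pass with other size factors (0.0523, RLE), with the replicate block (0.0567), with the compared groups alone (0.0766) or with no filter on low counts (0.155). Thbs1 measured 5.24, 11.4, 9.79 and 6.13 CPM in KO_ASO, where replicate 2 exceeded 2 of the KO_PBS samples. The log2FC of Thbs1 was -0.97 ± 0.32 (SE; adjusted P value = 0.106 in edgeR, 0.0336 in DESeq2, n = 4 per group).

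Fn1 measured 44.2, 55.2, 109.7 and 83.7 CPM in KO_ASO, with replicate 3 inside the KO_PBS range, and Thbs2 4.51, 3.52, 11.2 and 6.27 CPM, likewise with replicate 3 inside. Their log2FCs were -1.06 ± 0.38 and -1.03 ± 0.37 (SE; adjusted P value = 0.144 and 0.147, edgeR, n = 4 per group). Postn split into a low and a high pair, at 12.5, 12.4, 55.7 and 58.2 CPM, and the high pair reached the KO_PBS range. Tnc measured 3.96, 3.29, 15.8 and 5.09 CPM, with replicate 3 far above the others. Log2FCs of Postn and Tnc were -1.27 ± 0.65 and -1.10 ± 0.62 (SE; adjusted P value = 0.337 and 0.39, edgeR). Single samples moved several of these values, none of which passed with or without them in this fit. Without KO_PBS replicate 1 the log2FC of Postn was -0.77, without KO_ASO replicate 3 that of Tnc was -1.87, and without KO_PBS replicate 4 that of Thbs2 was -0.68. Thbs4 and Sparc, the most abundant per kilobase, had the smallest differences. Thbs4 measured 82.8, 58.8, 176 and 81.4 CPM, and Sparc 302, 277, 620.1 and 735 CPM, which put 2 KO_ASO samples below and 2 above every KO_PBS sample. Their log2FCs were -0.60 ± 0.38 and -0.09 ± 0.32 (SE; adjusted P value = 0.452 and 0.923, edgeR). Without KO_PBS replicate 1 the log2FC of Thbs4 was -0.29, and without KO_ASO replicate 3 it was -1.03. The fibroblast sum ran from 858 to 2181 CPM in KO_ASO with 2 of 10 genes called lower, the macrophage sum from 28.9 to 51.8 CPM with 5 of 7 called lower, and the tendon sum from 15.4 to 151 CPM with 1 of 7 called lower. Per 1000 fibroblast CPM, Fbn1 measured 26.4 ± 5.59 in KO_ASO and Thbs1 6.47 ± 3.95 (SD, n = 4), both overlapping KO_PBS. The share of all genes whose KO_ASO and KO_PBS samples do not overlap on this scale was not determined. Among the 8 genes Sparc alone did not overlap there. It measured 323.7 ± 26.2 (SD, n = 4), from 293.0 to 352 against 155.5 to 235.9 in KO_PBS. All 4 of these KO_ASO values were also above the highest WT_PBS value, 273.2, but overlapped WT_ASO, at 192.9 to 321.5. Against Pdgfra, Sparc in KO_ASO ran from 34.1 to 55.1 times the Pdgfra level and overlapped KO_PBS.

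In wild-type mice the oligonucleotide called none of the 8 genes in edgeR, where 0.00668% of all genes were called, and 0 of the 8 had an unadjusted P value under 0.05, against 6.45% of all. DESeq2 and limma-voom called 0 as well. Thbs1 measured 4.71, 4.05, 7.47 and 8.70 CPM and Fbn1 20.9, 19.0, 38.9 and 44.0 CPM in WT_ASO replicates 1 to 4. Both had samples on either side of the WT_PBS range, as had Sparc with 252, 298, 431 and 678 CPM. The log2FCs ran from -0.71 for Postn to 0.19 for Thbs1, and with a sample left out that of Postn lay between -1.36 and -0.41 and that of Thbs1 between -0.016 and 0.35. For Postn (10.2, 6.22, 21.6 and 41.4 CPM) and Tnc (3.08, 1.48, 7.80 and 10.2 CPM) the SEs were 0.65 and 0.62. Fn1 measured 48.4, 43.9, 126 and 119 CPM, Thbs2 6.87, 5.53, 9.17 and 11.9 CPM and Thbs4 63.4, 62.4, 133 and 112 CPM in WT_ASO. In all 8 genes replicates 1 and 2 were the lower pair and replicates 3 and 4 the higher. Against WT_PBS replicate 2 alone, 5 of the 8 signs turned, and Postn, Tnc, Fn1, Thbs2 and Thbs4 were then higher in WT_ASO.

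Whether the oligonucleotide acted differently in the 2 genotypes was tested as an interaction, and again edgeR called none of the 8 genes (0.575% of all), with 0 calls in DESeq2 and limma-voom. Thbs1 and Fbn1 were the 2 genes with an unadjusted P value under 0.05 (12.7% of all genes), with interaction values of -1.16 ± 0.45 and -1.03 ± 0.43 on the log2 scale (SE; adjusted P value = 0.287 and 0.332, edgeR, n = 4 per group). All 8 values were negative with all samples, as 49.5% of all genes' were, and those of Postn and Sparc turned positive without WT_ASO replicate 4 (0.095 and 0.28), that of Sparc also when any 1 of 4 other samples was left out. Fbn1 and Thbs1 in knockout mice were thus not shown to respond differently from wild-type mice.

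Treated knockout mice were also set against each wild-type group. In KO_ASO vs WT_PBS edgeR called 0 of the 8 genes (0.0401% of all), 0 had an unadjusted P value under 0.05 (8.22% of all), and DESeq2 and limma-voom called 0. The log2FCs were positive for 4 genes and negative for 4, from -0.68 for Thbs2 to 0.57 for Thbs1. Mean Fbn1 was 37.0 ± 11.6 CPM in KO_ASO and 33.0 ± 6.30 CPM in WT_PBS (SD, n = 4), a log2FC of 0.16 ± 0.30 (SE; adjusted P value = 0.936, edgeR). Mean Thbs1 was 8.14 ± 2.92 CPM against 5.47 ± 0.791 CPM (SD, n = 4), or 0.57 ± 0.32 (SE; adjusted P value = 0.686, edgeR). With WT_PBS replicate 2 alone the log2FCs ran from -0.028 for Thbs2 to 1.45 for Tnc, none of them called. In KO_ASO vs WT_ASO, where both groups had the oligonucleotide, edgeR, DESeq2 and limma-voom each called 0 genes (0.0735% of all in edgeR) and 0 had an unadjusted P value under 0.05 (15.1% of all). There the log2FCs ran from -0.40 for Thbs2 to 0.80 for Postn.

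Mice of a group differed in these genes more than in most others. The SD of log2 CPM within groups was 1.0 for Postn and 0.98 for Tnc, larger than for 98.7% and 98.6% of the genes tested, and 0.48 to 0.58 for the other 6 genes, against a median of 0.23. The genes deviated together: across the 28 pairs of the 8 genes, Pearson's r of the deviations from the group means over the 16 samples ran from 0.29 to 0.91 with a median of 0.71, where the median of a member's r with all other genes was between 0.002 and 0.016. Several samples were high or low for most of the set. WT_ASO replicate 4 was the highest of its group for 6 of the 8 genes and replicate 2 the lowest for 7, and KO_PBS replicate 1 was the highest of its group for 6. Deviations also went with those of marker sums, at r of 0.46 for Thbs1 to 0.92 for Sparc with the fibroblast sum, and 0.36 for Thbs1 to 0.87 for Thbs2 with the tendon sum. With the macrophage sum r was 0.35 for Tnc to 0.78 for Fbn1, and 0.46 for Thbs1, and with the endothelial sum 0.13 for Thbs2 to 0.46 for Postn. These correlations describe 16 samples, each a single library from which all of its values come. Of the genes called in the genotype comparison, Thbs1 had the lowest r of the 8 with the fibroblast and tendon sums, and Fbn1 had the second highest with the fibroblast sum (0.86) and 0.66 with the tendon sum.

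**Figure D4:**
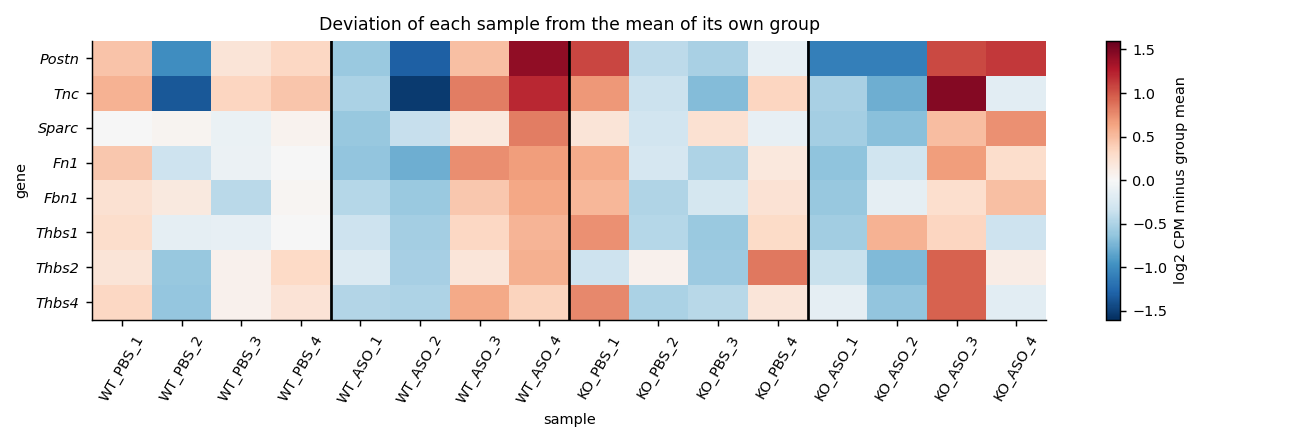
Log2 CPM minus the mean of the sample's own group (colour, red above and blue below) for the 8 genes (rows) in the 16 samples (columns), with lines between groups. Columns tend to hold 1 colour, as in WT_ASO replicate 2 (blue for all 8 genes) and WT_ASO replicate 4 (red for all 8), and Postn and Tnc show the widest range.

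Outside the set, the genes most like each member were those with the highest Pearson's r of log2 CPM over the 16 samples, the other 7 members being left out of the ranking. Tnc and Thbs4 were closer to each other (r = 0.93) than to any gene outside the set, and the r of Thbs4 with Fn1 was 0.88. The nearest to Fbn1 were Sec61a1, the channel for secreted proteins of the endoplasmic reticulum, and Pdgfra (r = 0.98 and 0.97). Pdgfra itself was called higher in KO_PBS, with a log2FC of 0.95 (adjusted P value = 0.0272, edgeR, n = 4 per group). Thbs1 was nearest to Cgref1, a secreted calcium-binding protein, and S100a4, a marker of fibroblasts and macrophages (r = 0.95 and 0.91). Sparc was nearest to C1qtnf6 and Sorcs2 (0.97 and 0.93), Fn1 to Serpinf1 and Antxr1 (0.95 and 0.92), and Postn to Dpysl3 and Igsf10 (both 0.96). Of the genes outside the set Igsf10 was also near to Tnc, after Cdh11, a cadherin of mesenchymal cells (both 0.92). Outside the set Thbs4 went with the lysyl oxidase relative Loxl3 and the collagen gene Col8a2 (0.89 and 0.88), and Thbs2 with the collagen-binding proteoglycan gene Prelp and with Pycard (0.88 and 0.87).

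Relatives, partners, receptors and inducers of the 8 genes made 4 lists, of which 64 genes could be tested. In KO_PBS vs WT_PBS 21 of them were called higher and 1 lower, against 7.43% and 5.12% of all genes. In KO_ASO vs KO_PBS 8 were called lower and 1 higher, against 2.83% and 0.802% of all. With WT_PBS replicate 2 as the only WT_PBS sample these 22 and 9 calls became 3 and 4. Leaving out single samples gave 11 to 25 and 2 to 17 calls, the fewest without WT_PBS replicate 4 in the first comparison and without KO_ASO replicate 1 or 3 in the second.

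Among the matricellular relatives 5 of 18 tested genes were called higher in KO_PBS, with a median log2FC of 0.48. Cilp, a cartilage and fibroblast matrix protein, rose from 19.5 ± 6.44 CPM in WT_PBS to 332 ± 101 CPM in KO_PBS (SD, n = 4; log2FC 4.08 ± 0.48 SE, adjusted P value = 0.00011, edgeR) and stood at 71.2 ± 28.2 CPM in KO_ASO (log2FC against KO_PBS -2.22 ± 0.44 SE, adjusted P value = 0.0143, edgeR). The testican Spock2 rose by 1.07 on the log2 scale in KO_PBS and fell by 0.92 in KO_ASO (adjusted P value = 0.00553 and 0.0342, edgeR). Ccn2, the connective tissue growth factor, rose by 1.42, Thbs3 by 1.03 and the SPARC relative Fstl1, named after its value was seen, by 1.03 (adjusted P value = 0.0249, 0.0278 and 0.0483, edgeR). In KO_ASO vs KO_PBS 2 of the 18 were called lower, Cilp and Spock2.

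Of the fibrillin and elastic fibre partners 6 of 17 were called higher in KO_PBS, at a median log2FC of 0.75, and 4 were called lower in KO_ASO vs KO_PBS. Some LTBP proteins, though not all, tether latent TGF-beta to fibrillin. Among the LTBP genes, Ltbp3 rose from 63.2 ± 8.98 to 108 ± 9.86 CPM and Ltbp2 from 0.551 ± 0.223 to 2.76 ± 2.63 CPM (SD, n = 4; adjusted P value = 0.000705 and 0.00678, edgeR). Ltbp2 then stood at 0.461 ± 0.164 CPM in KO_ASO (SD, n = 4; log2FC -2.58, adjusted P value = 0.0114, edgeR). The microfibril protein gene Mfap5 measured 9.56 ± 0.664 CPM in WT_PBS, 33.6 ± 13.1 in KO_PBS and 13.4 ± 7.27 in KO_ASO (SD, n = 4), and was called in both comparisons (adjusted P value = 0.00324 and 0.0418, edgeR). So was fibulin 1, Fbln1, at 2.86 ± 0.494, 7.27 ± 3.47 and 2.59 ± 0.501 CPM (SD, n = 4; adjusted P value = 0.00666 and 0.0106, edgeR).

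**Figure D5:**
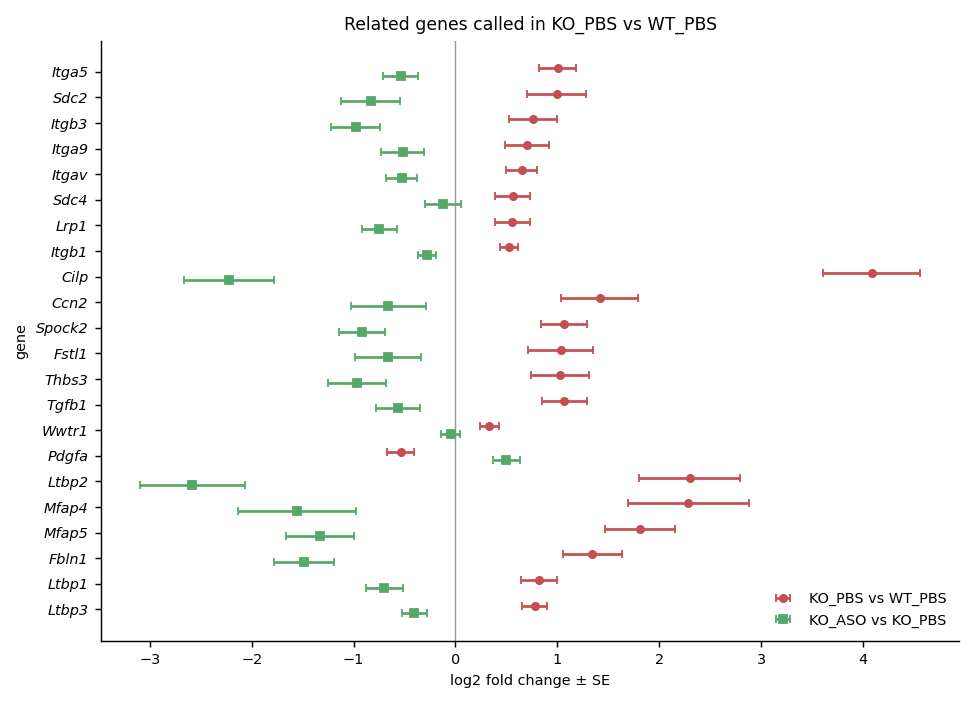
Log2FC with its SE (x axis) of the 22 related genes called in KO_PBS vs WT_PBS (y axis, grouped by list), as red circles for that comparison and green squares for KO_ASO vs KO_PBS, which shares the KO_PBS samples. Cilp had the highest value, 4.08, and Pdgfa was the 1 gene with a negative value in the first comparison.

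Receptors of the 8 proteins were called higher for 8 of 18 genes in KO_PBS, at a median log2FC of 0.51, and lower for 2 in KO_ASO vs KO_PBS. The fibronectin receptor subunits Itgb1 and Itga5 rose by 0.52 and 1.0 on the log2 scale, Itgav, a subunit of receptors for fibronectin, periostin and thrombospondin, by 0.65, and the syndecan Sdc2 by 0.99 (adjusted P value = 0.00127, 0.00181, 0.0113 and 0.0358, edgeR). The 2 called lower in KO_ASO, named after their values were seen, were Itgb3 and Lrp1, a receptor that takes up thrombospondin. Of 11 tested genes known to induce matrix genes, Tgfb1 rose from 3.99 ± 1.39 to 8.41 ± 0.999 CPM (SD, n = 4) and Wwtr1, the TEAD coactivator TAZ, from 34.5 ± 2.53 to 43.4 ± 4.93 CPM (SD, n = 4; adjusted P value = 0.00456 and 0.0280, edgeR). Pdgfa fell by 0.54 on the log2 scale in KO_PBS and rose by 0.50 in KO_ASO against KO_PBS (adjusted P value = 0.0149 and 0.0485, edgeR). The median of this list was 0.06.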

How the data were processed

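RNA-seq of 16 muscle samples was used, each sample being taken as a separate mouse, and the labels name TRI Reagent and a stranded mRNA kit. The deposited values are whole-number counts of reads, which the authors gave per Ensembl gene and did not normalize. Tools in the submitters' processing notes were STAR 2.5.3a, HTSeq 0.6.1p1, Bowtie2 2.2.8 and cutadapt 1.10, with the mouse build GRCm38 (mm10). For the annotation release and the strand setting of the counting, nothing is given in the sources used here.

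Differential expression was tested with edgeR 4.0.16 in R 4.3.3. After filterByExpr by group 14960 genes remained and 14770 were left out. TMM scaling and a robust quasi-likelihood fit with 1 mean per group over all 16 samples followed, with Benjamini-Hochberg adjustment within a comparison. The SE was the log2FC divided by the square root of F, and correlations used log2 CPM with a prior count of 2. Samples of a group differed by a mean chi-square of at least 22.2 a gene, far above sampling noise, so each library counted separately. Alternatives were DESeq2 1.42.0, limma-voom with sample weights (limma 3.58.1), RLE or no scaling factors, no filter, the compared groups alone, a replicate block and leaving out each sample. The script was tested on simulated data. Named were the 8 genes, in each related list up to 4 called genes with the smallest P value in KO_PBS vs WT_PBS, and 2 most similar genes per member, with exceptions stated. The genes and lists were chosen with earlier results of these data known.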

Additional observations from a re-analysis of the deposited data

Results flagged for a closer look

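Each of the 8 genes was examined in each of the 4 groups for a sample far from the other 3, which made 32 sets of 4 samples. Chance alone marks about 1 in 20 such sets, and 2 were marked here. Postn in KO_PBS replicate 1 measured 157 CPM, where the other 3 samples of the group lay between 52.2 and 68.3 CPM. Tnc in KO_ASO replicate 3 measured 15.8 CPM, against 3.29 to 5.09 CPM in the others. Without KO_PBS replicate 1 the log2FC of Postn in KO_PBS vs WT_PBS was 0.85, and without KO_ASO replicate 3 that of Tnc in KO_ASO vs KO_PBS was -1.87. In the edgeR fit over all 4 groups neither value was called with or without the sample, while Postn with all samples was called in the fit of the compared groups alone (adjusted P value = 0.0454, edgeR).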

How the results depend on the processing

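In KO_PBS vs WT_PBS, Fbn1 and Thbs1 were called under all 7 other settings and when any 1 sample was left out, but 0 of the 8 genes with WT_PBS replicate 2 as the only WT_PBS sample, an alternative chosen after seeing the data, which leaves 1 sample in that group. Postn was called as well with the compared groups alone. In KO_ASO vs KO_PBS the count of 0 became 2 with DESeq2, 1 with limma-voom, 1 with library totals alone, and 0 to 1 when samples were left out, Fbn1 being the gene each time and Thbs1 the second in DESeq2. Over all genes tested, library totals gave 760 calls in this comparison and TMM 544. Calls over all genes in DESeq2, in limma-voom and with samples left out are not given here. The cause of these changes in the count was not tested.

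Related genes called numbered 22 in KO_PBS vs WT_PBS and 11 to 25 with a sample left out, the lowest being 11, 12 and 13 without WT_PBS replicate 4, WT_PBS replicate 3 and KO_PBS replicate 1. The 9 called in KO_ASO vs KO_PBS became 17 (DESeq2), 18 (limma-voom), 14 (library totals), 15 (replicate block) and 4 (compared groups alone). They were 2 without KO_ASO replicate 1 or 3, 3 without KO_PBS replicate 4, 4 without KO_PBS replicate 1 or KO_ASO replicate 2, and 17 without KO_ASO replicate 4. With WT_PBS replicate 2 alone they were 3 and 4.

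Log2FCs that changed sign belonged to values that were not called. In KO_ASO vs WT_PBS these were Postn with limma-voom (-0.34) and the replicate block (-0.041), Sparc with limma-voom (-0.038) and Thbs4 with library totals (0.028). With WT_PBS replicate 2 alone they were Tnc (1.45), Fn1 (0.016) and Thbs4 (0.65) in that comparison, and Postn (0.39), Tnc (1.14), Fn1 (0.22), Thbs2 (0.37) and Thbs4 (0.54) in WT_ASO vs WT_PBS.
When single samples were left out, the log2FCs that took both signs ran from Thbs2 -0.0076 to 0.52 in KO_PBS vs WT_PBS. They ran from Sparc -0.37 to 0.088 in KO_ASO vs KO_PBS. They ran from Sparc -0.37 to 0.15, Fn1 -0.39 to 0.080, Fbn1 -0.33 to 0.070, Thbs1 -0.016 to 0.35 and Thbs4 -0.34 to 0.031 in WT_ASO vs WT_PBS. They ran from Postn -0.93 to 0.095 and Sparc -0.34 to 0.28 in the interaction. They ran from Postn -0.28 to 0.37, Tnc -0.88 to 0.13, Sparc -0.081 to 0.38, Fbn1 -0.011 to 0.33 and Thbs4 -0.44 to 0.16 in KO_ASO vs WT_PBS. They ran from Tnc -0.45 to 0.77, Sparc -0.053 to 0.56, Fn1 -0.46 to 0.052 and Thbs4 -0.31 to 0.33 in KO_ASO vs WT_ASO.

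Samples with the same replicate number did not deviate together throughout (r from -0.078 to 0.43 over 24 pairs, 11 above 0.1), and the numbers were not used as pairs. Between WT_ASO and KO_ASO the r was 0.408, 0.0128, 0.19 and 0.435 for replicates 1 to 4. Pairs of unlike number were not set beside these, so whether the numbers mark a shared batch was not tested. With the replicate block 2 of the 8 genes were called in KO_PBS vs WT_PBS and 0 in KO_ASO vs KO_PBS. With 4 mice a group and the spread of Postn and Tnc, a 2-fold difference in either lay within 2 SEs, and levels per kilobase of Sparc, Fn1 and Postn depend on the transcript length used.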
